A study of Mus musculus with 2 samples.

Results

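The genes described here are 10 cytokines, receptors and antagonists of the TNF and IL-1 families, taken by symbol from the 34285 genes counted in single cells of the developing mouse molar. They are Tnf and its receptors Tnfrsf1a and Tnfrsf1b, Tnfsf12 and its receptor Tnfrsf12a, the IL-1 cytokines Il1a and Il1b, their antagonist Il1rn, the IL-1 receptor Il1r1 and the IL-33 receptor Il1rl1. The tissue was the mandibular first molar with its surroundings, taken from C57BL/6J mice at PN15.5 (PN, postnatal day) and dissociated with Dispase and Collagenase I. The Lipo-Clo mice had been injected intraperitoneally with clodronate liposomes, which kill phagocytes that take them up, at 40 μg per g of body weight first at PN3.5 and then every 3 days up to PN12.5. The Lipo-PBS mice had received the same volume of vehicle liposomes on the same days. There was 1 library per condition, and how many mice went into each was not given in the sources used here.

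TNF is a membrane-bound cytokine that is shed by a protease and acts through TNFR1 (Tnfrsf1a), which most cells carry, and TNFR2 (Tnfrsf1b), which is largely a receptor of leukocytes. IL-1α and IL-1β share the receptor chain encoded by Il1r1, and the product of Il1rn occupies that receptor without signalling. Il1rl1 encodes ST2, which binds IL-33, a cytokine stored in the nuclei of stromal and barrier cells, and a soluble ST2 from the same gene acts as a decoy. TWEAK (Tnfsf12) acts through Fn14 (Tnfrsf12a). The receptors converge on NF-κB, and in the jaw TNF and IL-1 are best known for driving osteoclast formation and inflammatory bone loss.

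The promoter windows below are shown because Il6, Cxcl1 and Cxcl2 are textbook targets of TNF and IL-1 whose counts are given further down and were the targets with a match to the motif. Each is RefSeq sequence of GRCm38.p6, plus strand and 5′ to 3′, with 30 bases on each side of the matches. Capitals mark letters that match, on either strand, 1 form of the κB motif (GGG, any 2 bases, then TTTCC). Il6 is shown for chr5:30013040-30013109, Cxcl1 for chr5:90891126-90891213 and Cxcl2 for chr5:90903772-90903860.
Il6: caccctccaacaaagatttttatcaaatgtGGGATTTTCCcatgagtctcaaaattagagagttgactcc
Cxcl1: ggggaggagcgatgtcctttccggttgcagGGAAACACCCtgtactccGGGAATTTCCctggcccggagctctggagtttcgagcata
Cxcl2: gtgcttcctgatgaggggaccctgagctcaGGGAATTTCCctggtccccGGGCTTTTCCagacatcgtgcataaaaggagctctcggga
The Il6 match lay 44 to 35 bases before the annotated start. Cxcl1 held a match on the minus strand 89 to 80 bases before its start and another on the plus strand 71 to 62 bases before it. The Cxcl2 matches, both on the plus strand, lay 97 to 88 and 78 to 69 bases before the start. The motif was found in 535 of 32851 promoters of the same length (250 bases before to 50 after a start), or 1.63%. Of the 9 target genes with a promoter in the table, these 3 (33.3%) had a match and the other 6 had none. Of the 9 TNF and IL-1 genes with a promoter in the table, only Il1rn had a match, in 2 of the 13 promoters the 9 genes have there, and 1 of these lay 51 to 42 bases before a start. A match describes letters in a window and says nothing of whether a factor binds there. Other forms of the κB motif were not searched for.

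After filtering, 8254 Lipo-Clo and 8261 Lipo-PBS cells remained, with a median of 2567 and 2678 unique molecular identifiers (UMIs, 1 per captured transcript) per cell. The cells fell into 26 clusters, which were grouped into 16 named classes by marker genes. The 10 genes described here and 58 other genes of the pathway were left out of the clustering (68 in all), so no class was defined by them. Macrophages, the cells the treatment targets, were 121 of the Lipo-Clo cells (1.47%) and 143 of the Lipo-PBS cells (1.73%). Because counts come from dissociated cells, a change in how many cells were released cannot be told apart from a change in the tissue. Markers of other cells were also present in dental mesenchyme and differed between the libraries: S100a9 of neutrophils stood at 301 CPM (UMIs per 1000000 UMIs) in Lipo-Clo and 93.2 in Lipo-PBS, and haemoglobin Hbb-bs at 14261 and 33704. The neutrophil and red cell RNA thus moved in opposite directions, and its part in the values below was not tested. With 1 library per condition, no difference has a replicate check and no p-value is given. Levels are in CPM of the class, ratios are log2(Lipo-Clo/Lipo-PBS) with the exact 95% interval of a ratio of Poisson counts, and intervals cover counting error only. A ratio is given only where both libraries together held at least 20 UMIs, and a gene is called higher or lower past 1.5-fold.

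Among all cells kept, 1 of the 10 genes was higher in Lipo-Clo and 3 were lower, where 6.59% of all genes were higher and 14.5% lower. The higher gene was Il1b, the inflammasome-processed IL-1 cytokine, with 1572 UMIs in Lipo-Clo and 952 in Lipo-PBS (log2 0.67, 0.55 to 0.79). The lower genes were Il1rl1 with 657 and 1652 UMIs (log2 -1.39, -1.52 to -1.25), Il1a with 78 and 164 (log2 -1.13) and Il1r1 with 630 and 965 (log2 -0.67). These totals mix cell classes whose numbers differed between the libraries, so the values below are given class by class.

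**Figure D1:**
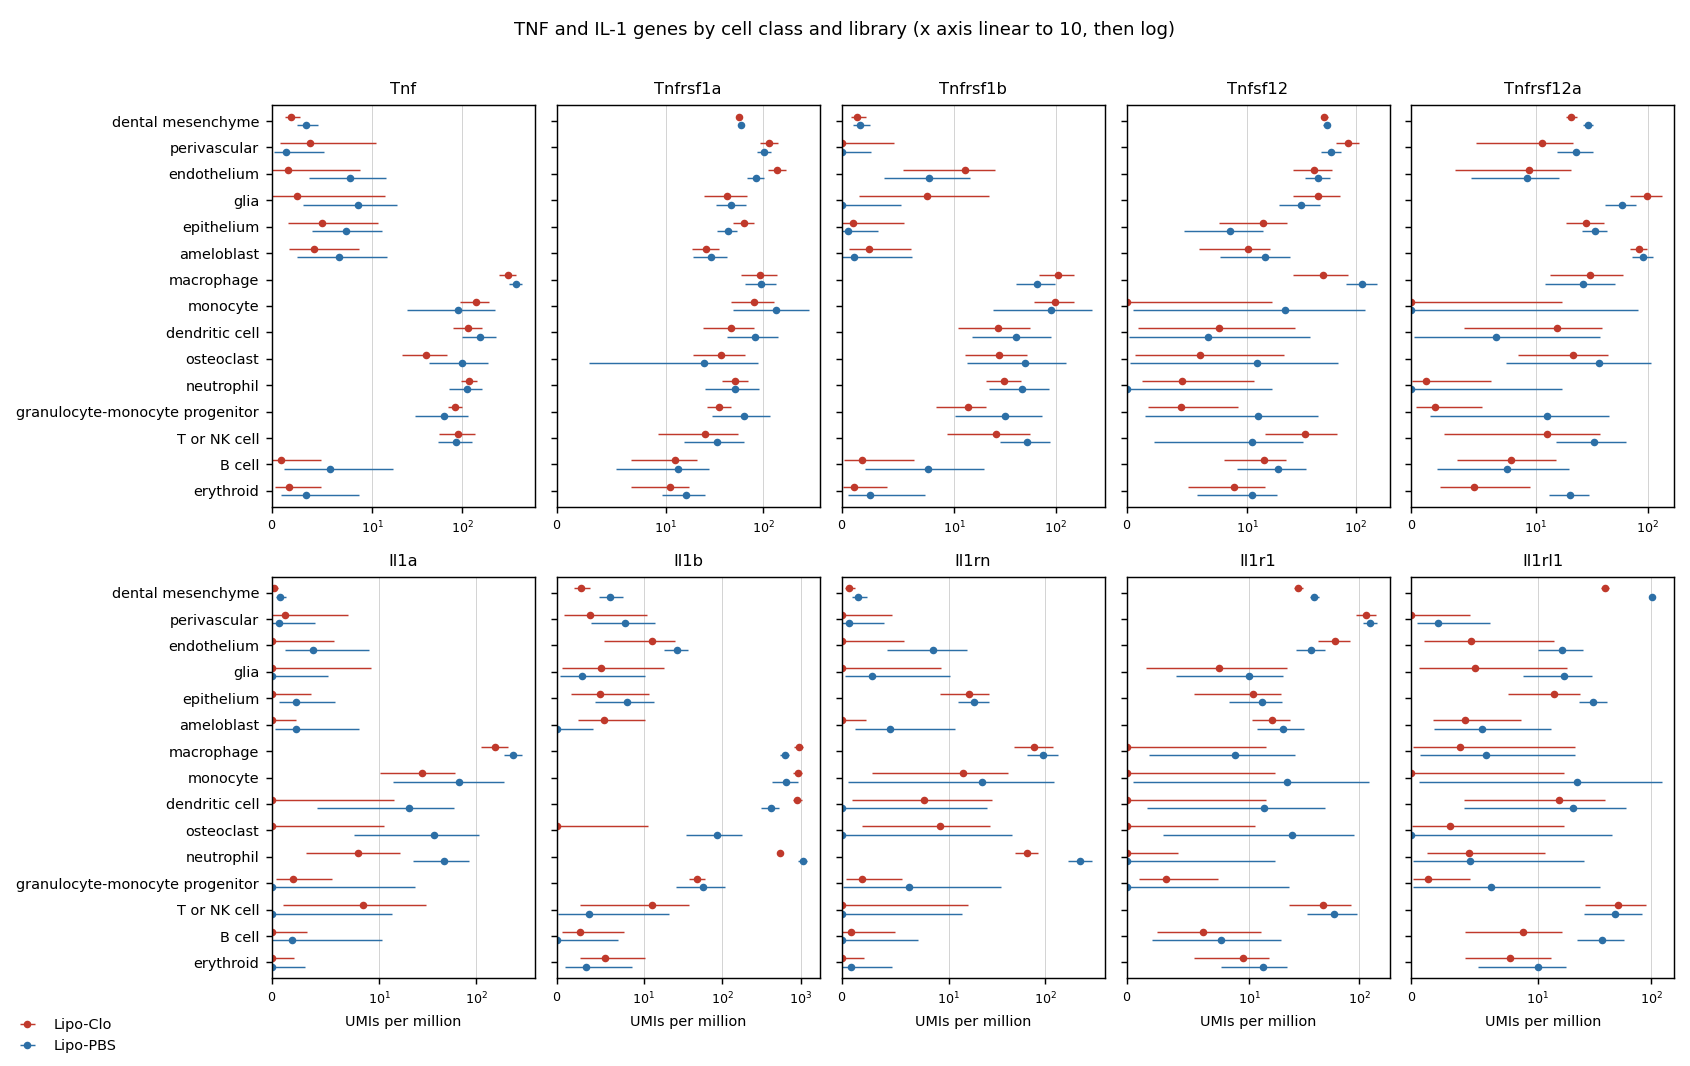
CPM (x axis, linear to 10 and logarithmic beyond) of the 10 genes in 15 cell classes, with 1 point per library and exact 95% Poisson intervals. The cytokines Tnf, Il1a and Il1b are highest in myeloid classes, and Tnf is also present in T or NK cells (89.0 and 85.3). Il1r1 is highest in perivascular cells (115 and 125), and Il1rl1 in dental mesenchyme stands at 39.0 and 101.

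Tnf, the prototype of its family, was highest in macrophages in both libraries. There it reached 316 CPM in Lipo-Clo (82 UMIs) and 388 in Lipo-PBS (131 UMIs), and the interval of the ratio included no difference (log2 -0.30, -0.71 to 0.11). Dendritic cells followed at 115 and 156, neutrophils at 119 and 111, monocytes at 140 and 88.7, T or NK cells at 89.0 and 85.3, and granulocyte-monocyte progenitors at 83.7 and 62.8. None of these classes differed beyond its counting interval. A Tnf UMI was found in 41.3% of Lipo-Clo and 40.6% of Lipo-PBS macrophages, against 0.191% and 0.755% of B cells, whose median depth was 975 and 1016 UMIs against 1800 and 2095 in macrophages. Thinned to 1000 UMIs per cell, the macrophage shares were 31.1% and 26.0%, of 103 and 127 cells. The counts still allow a Tnf level up to 1.64-fold lower in Lipo-Clo macrophages.

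Il1a, the IL-1 cytokine that is active without processing, was the most macrophage-restricted of the ligands. Macrophages held 52.6% of its UMIs in Lipo-Clo (interval 40.9 to 64.0) and 50% in Lipo-PBS (42.1 to 57.9). Their level was 158 CPM in Lipo-Clo (41 UMIs) and 243 in Lipo-PBS (82 UMIs), which made Il1a lower in Lipo-Clo macrophages (log2 -0.62, -1.20 to -0.06). No other named class held 20 Il1a UMIs. Monocytes, with 6 and 3 UMIs, were next in level at 27.9 and 66.5 CPM.

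Il1b was spread over 4 myeloid classes whose mean levels lay close together. Neutrophils showed 551 CPM in Lipo-Clo and 1063 in Lipo-PBS, macrophages 939 and 624, monocytes 912 and 643, and dendritic cells 907 and 413. The order of the classes was not the same in both libraries: neutrophils were highest in Lipo-PBS and lowest of the 4 in Lipo-Clo. Il1b was higher in Lipo-Clo dendritic cells (log2 1.14, 0.72 to 1.57) and macrophages (log2 0.59, 0.32 to 0.86). The macrophage ratio lay just past the limit, with 33 of the 244 Lipo-Clo UMIs in 1 cell. It was 0.52 without the cell with the most UMIs in each library, and it went from 0.37 to 0.71 over the alternatives. Il1b was lower in Lipo-Clo neutrophils (log2 -0.95, -1.18 to -0.72). In monocytes the interval included no difference (log2 0.50, -0.06 to 1.12). Markers of neutrophils and macrophages also differed between the libraries in these classes. In dendritic cells S100a8 was 5283 and 833 CPM, S100a9 9386 and 2350, and C1qa held 26 and 3 UMIs, all higher in Lipo-Clo. In macrophages S100a8 was 104 and 56.2 from 27 and 19 UMIs, and the interval included no difference (log2 0.89, -0.01 to 1.82). Their own marker C1qa was 2918 and 2162. In monocytes S100a8 was 18017 and 710. In neutrophils their own marker S100a8 was higher in Lipo-Clo (log2 0.45), whereas Il1b was lower. The part of such RNA or cells in the Il1b values was not tested. For each 1000 UMIs of S100a8 and S100a9, neutrophils held 1.61 and 4.01 Il1b UMIs, monocytes 23.0 and 806, dendritic cells 61.9 and 130 and macrophages 2280 and 2221.

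The division of the myeloid cells into 16 clusters places these values more narrowly. In the neutrophils led by Stfa2, Retnlg and G0s2, genes of mature neutrophils, Il1b stood at 2434 CPM in Lipo-Clo and 4210 in Lipo-PBS (log2 -0.79, -1.04 to -0.54). In the neutrophils led by the granule genes Camp, Ltf and Ngp it was 12.4 and 49.0, so the level in neutrophils as a class depends on which of them a library held. The macrophages led by Pf4, Ccl12 and Ccl7 showed 974 and 761 (log2 0.36, 0.02 to 0.69), and those led by Pf4, Ms4a7 and C1qc showed 903 and 322 (log2 1.49, 0.92 to 2.08). The higher Il1b of Lipo-Clo macrophages was thus past 1.5-fold only in the Ms4a7 cluster, and the difference between the clusters was not tested. Tnf was 405 and 490 in the Ccl12 cluster (log2 -0.28) and 222 and 161 in the Ms4a7 cluster (log2 0.46), with both intervals including no difference. Il1a was 232 and 327 in the Ccl12 cluster (log2 -0.49, -1.14 to 0.13), an interval that included no difference. In the Ms4a7 cluster it was 79.2 and 56.9 from 10 and 6 UMIs, too few for a ratio. The Ccl12 cluster held 61 Lipo-Clo and 103 Lipo-PBS cells and the Ms4a7 cluster 60 and 40. The part of this mixture in the lower Il1a of Lipo-Clo macrophages was not tested.

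Il1rn, the receptor antagonist, was highest in neutrophils in Lipo-PBS and in macrophages in Lipo-Clo. In neutrophils it stood at 64.0 CPM in Lipo-Clo (56 UMIs) and 231 in Lipo-PBS (50 UMIs), lower in Lipo-Clo (log2 -1.85, -2.43 to -1.27). In the Retnlg and G0s2 neutrophils it was 158 and 838 (log2 -2.40, -3.15 to -1.67). Macrophages held 77.0 and 94.7 CPM from 20 and 32 UMIs (log2 -0.30, -1.18 to 0.55), and epithelium, a known non-myeloid source, 16.0 and 18.3. Il1b and Il1rn, the agonist and its antagonist, were the members lower in neutrophils. Of the 5 members with enough UMIs there, 0 were higher and 2 lower, where 15.7% of all neutrophil genes were higher and 28% lower. The median of all neutrophil genes moved by 0.45 on the log2 scale when edgeR's TMM factors replaced the total, to 0.31, and Il1b then stood at -0.50. Where cells needed 500 genes and no more than 10% mitochondrial UMIs, or were thinned to 1000 UMIs, Il1b in neutrophils turned to 0.37 and 0.49 and Il1rn stood at -0.40 and -0.70, so the lower Il1b of Lipo-Clo neutrophils depends on which cells were counted.

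**Figure D2:**
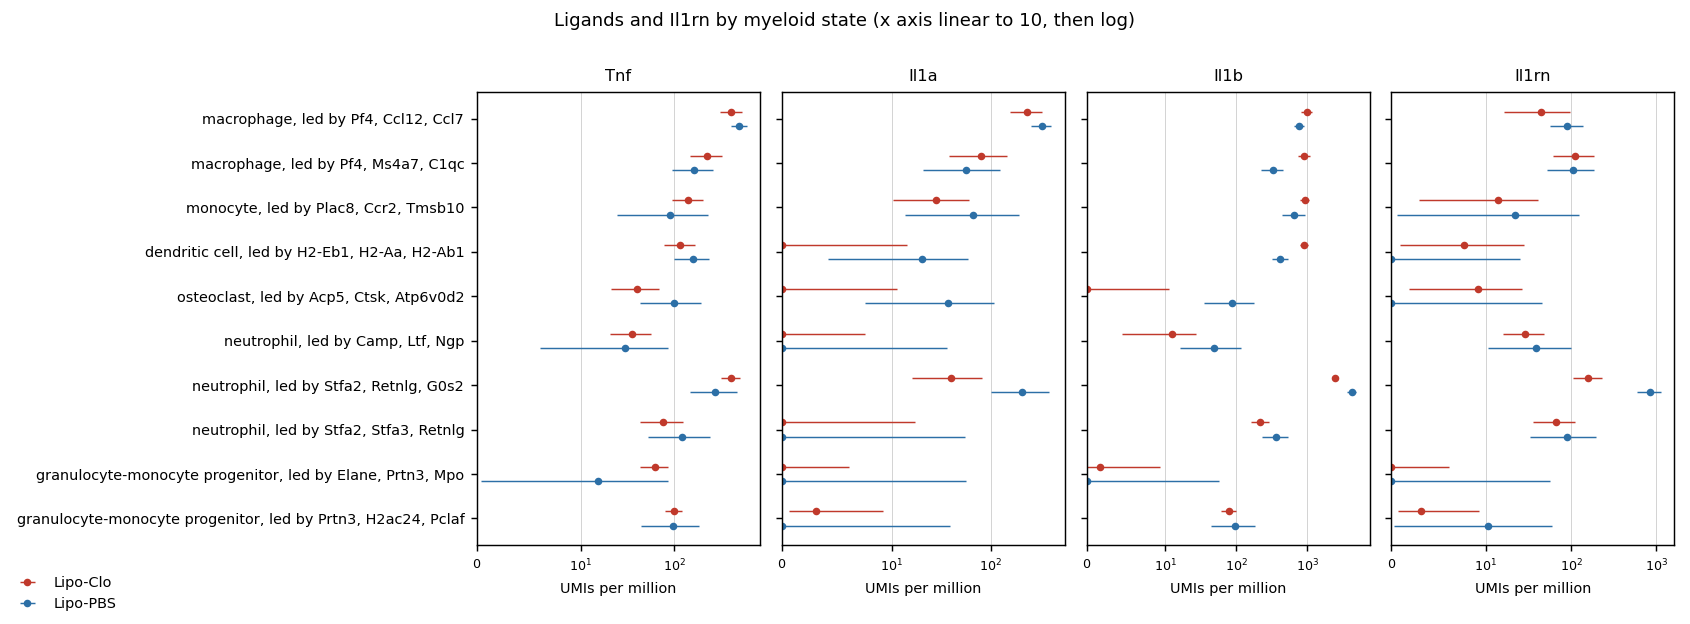
CPM (x axis, linear to 10 and logarithmic beyond) of Tnf, Il1a, Il1b and Il1rn in the named myeloid clusters, with 1 point per library and exact 95% Poisson intervals. Il1b is highest in the neutrophils led by Stfa2, Retnlg and G0s2 (2434 and 4210), and Il1a is highest in the macrophages led by Pf4, Ccl12 and Ccl7 (232 and 327).

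Macrophages held 7 members with enough UMIs, of which 2 were higher (Il1b and Tnfrsf1b) and 2 lower (Il1a and Tnfsf12), where 12.9% of all macrophage genes were higher and 22.4% lower. Tnfsf12, the TWEAK ligand, was 50.1 CPM in Lipo-Clo and 115 in Lipo-PBS (log2 -1.20, -2.23 to -0.27), from 13 and 39 UMIs. Tnfrsf1b was 104 and 65.1 (log2 0.68, -0.19 to 1.56), an interval that included no difference. Dendritic cells held 3 members with enough UMIs, of which Il1b was higher and Tnfrsf1a lower, beside 17.1% and 19% of all genes. Their Tnfrsf1a came from 12 and 12 UMIs, and the interval included no difference (log2 -0.82, -2.10 to 0.47).

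Most Tnfsf12 UMIs lay in the stroma, although its level in Lipo-PBS macrophages was above that of mesenchyme as a whole. Dental mesenchyme held 74.7% of its UMIs in Lipo-Clo and 63.3% in Lipo-PBS, at 51.6 and 54.5 CPM (746 and 734 UMIs, log2 -0.08, -0.23 to 0.07). Perivascular cells were at 84.9 and 60.0 (log2 0.50, 0.02 to 0.98). Within mesenchyme it was highest in the fibroblasts marked by Ccl19 and Gdf10 (137 and 142) and in the adventitial-type fibroblasts (138 and 100), and lowest in odontoblasts, the dentin-forming cells (12.01 and 9.04, from 9 and 5 UMIs), with osteoblasts or cementoblasts at 14.96 and 22.6. It was higher in the Lipo-Clo dental follicle, the tissue sac that forms the periodontium, at 65.7 against 40.3 (log2 0.70, 0.27 to 1.15). This call depended on the clustering: at mesenchyme resolution 0.3 the follicle ratio was 0.37, inside the limit. In the finer follicle clusters described below it was 0.75 (0.10 to 1.46) in the Moxd1-led one and 0.24 (-0.69 to 1.10) in the Dio2-led one. Tnfsf12 was lower in Lipo-Clo dividing cells, at 27.1 against 50.6 (log2 -0.90, -1.57 to -0.24). The gene overlaps the read-through gene Tnfsfm13, which held 20 and 29 UMIs in all cells, so the counts of Tnfsf12 are uncertain where reads could be given to either.

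Tnfrsf1a, which encodes the widely carried TNFR1, was found in every named class with at least 50 cells in each library. Endothelium stood at 139 and 83.7 CPM, monocytes at 79.1 and 133 from 17 and 6 UMIs, perivascular cells at 114 and 102, and macrophages at 92.4 and 94.7, levels whose order the libraries did not share. Dental mesenchyme had 56.8 and 58.6 from 820 and 789 UMIs, with a ratio near no difference (log2 -0.05, -0.19 to 0.10). Among its states, the dental follicle (98.8 and 95.6), the periodontal ligament (88.1 and 97.2) and the adventitial-type fibroblasts (86.4 and 83.5) were highest, and odontoblasts lowest (21.4 and 14.5). The cells marked by Mmp13 and Sfrp2 were the only state past 1.5-fold, at 48.6 and 28.1 (log2 0.79, 0.18 to 1.42). In endothelium Tnfrsf1a was higher in Lipo-Clo (log2 0.73, 0.31 to 1.15), but not where each library was clustered on its own (log2 -0.0094).

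Tnfrsf1b, the leukocyte TNF receptor, was highest in monocytes (97.7 and 88.7) and macrophages (104 and 65.1), with T or NK cells at 25.4 and 51.9 and neutrophils at 30.9 and 46.2. Perivascular cells held 0 of its UMIs in 789194 and 1400919, which allows at most 3.80 and 2.14 CPM. Dental mesenchyme held 20 and 22 UMIs, or 1.38 and 1.63 CPM. Mesenchyme and perivascular cells thus held Tnfrsf1a with little or no Tnfrsf1b, and monocytes and macrophages held both.

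Tnfrsf12a, the TWEAK receptor, was highest in ameloblasts, the enamel-forming cells, at 83.3 and 90.6 CPM (138 and 81 UMIs), and in glia at 98.0 and 58.4 (log2 0.75, 0.08 to 1.41). Dental mesenchyme was at 20.8 and 29.4 (log2 -0.50, -0.72 to -0.28), below the 1.5-fold limit. The ratio varied among the states. The cells marked by Tnn and Aspn were lower in Lipo-Clo, at 18.4 against 40.2 (log2 -1.13, -1.67 to -0.59), as were the odontoblasts (13.3 and 34.4, log2 -1.36) and dividing cells (14.2 and 30.6, log2 -1.10). The periodontal ligament state stood at 51.8 and 47.3 (log2 0.13, -0.53 to 0.77). Tnn and Aspn are also among the markers used to name that state, so it may not hold every cell of the ligament. Glia held 3 members with enough UMIs, of which Tnfrsf12a was higher, beside 11.3% of all genes. Ameloblasts held 4 members, of which 0 were past the limit in either direction, beside 10.3% and 11.9% of all genes.

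Il1r1, the signalling receptor of both IL-1 cytokines, had 64.3% of its Lipo-Clo and 54.8% of its Lipo-PBS UMIs in dental mesenchyme. By level, perivascular cells were highest at 115 and 125 CPM (91 and 175 UMIs, log2 -0.12, -0.50 to 0.26), followed by T or NK cells (46.6 and 59.4) and endothelium (60.0 and 36.4). Neutrophils held 0 UMIs in both libraries and macrophages 0 and 3, which allows at most 3.43 and 13.9 CPM in neutrophils. Dendritic cells held 0 and 2 and monocytes 0 and 1, so the 4 classes with the most Il1b held few or no Il1r1 UMIs. In Lipo-PBS the dendritic cell and monocyte counts were 13.5 and 22.2 CPM, too few UMIs to place these classes below mesenchyme there. Dental mesenchyme had 28.0 and 39.3 from 405 and 529 UMIs (log2 -0.49, -0.68 to -0.30), below the 1.5-fold limit. The state with the highest level was the Ccl19 and Gdf10 fibroblast (85.5 and 100), where the interval of the ratio included no difference (log2 -0.23, -1.03 to 0.53). Il1r1 was lower in the Lipo-Clo dental follicle, at 42.9 against 84.4 (log2 -0.98, -1.37 to -0.59), and in the periodontal ligament state, at 12.1 against 34.8 from 7 and 53 UMIs (log2 -1.53, -2.91 to -0.38). In the Tnn and Aspn cells, which carry markers of that state, it was 21.0 and 19.3 (log2 0.12, -0.51 to 0.76). In the papilla, which forms pulp and dentin, it was 52.9 and 42.7 (log2 0.31, -0.27 to 0.90).

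**Figure D3:**
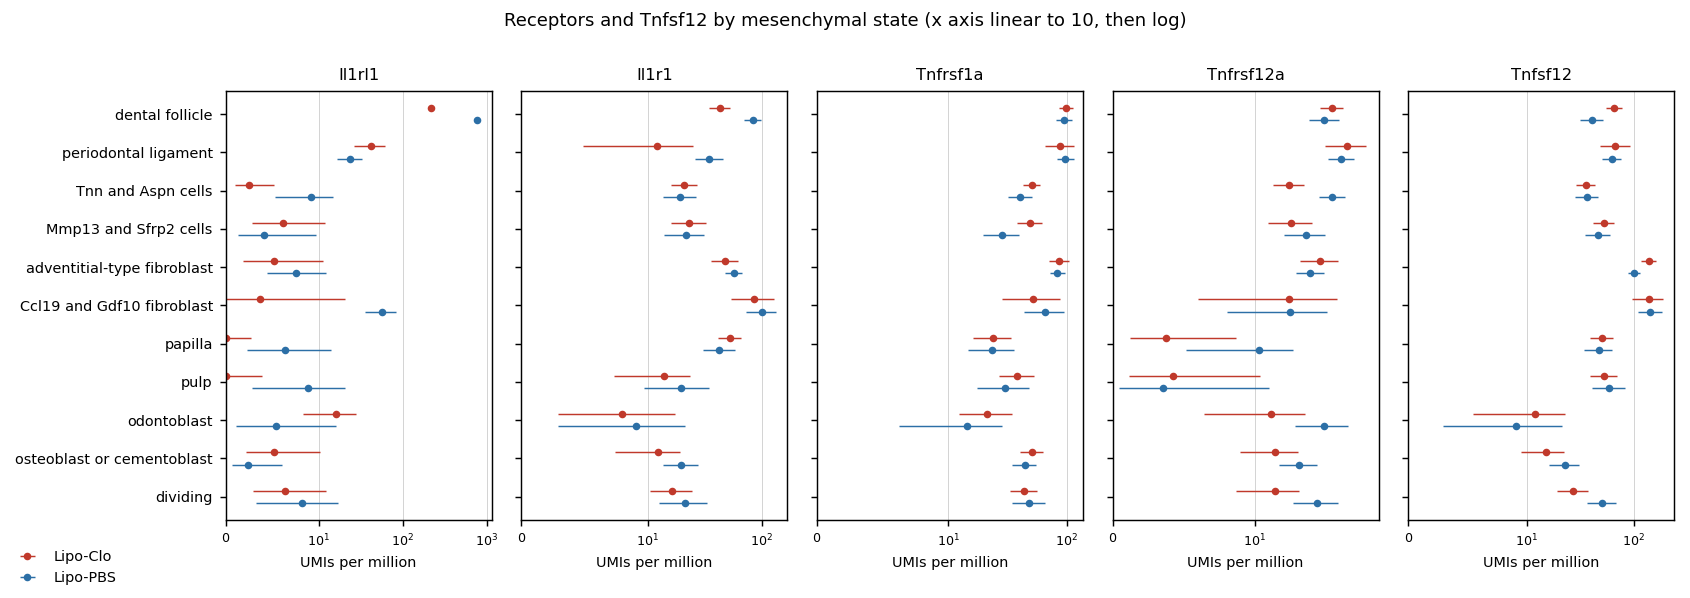
CPM (x axis, linear to 10 and logarithmic beyond) of Il1rl1, Il1r1, Tnfrsf1a, Tnfrsf12a and Tnfsf12 in the 11 states of dental mesenchyme, with 1 point per library and exact 95% Poisson intervals. Il1rl1 stands out in the dental follicle (218 in Lipo-Clo and 765 in Lipo-PBS), while Tnfrsf1a in the same cells is 98.8 and 95.6.

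Il1rl1, the IL-33 receptor gene, lay mostly in 1 mesenchymal state and had the largest difference in dental mesenchyme among those with over 100 UMIs there. Mesenchyme held 85.8% of its UMIs in Lipo-Clo (interval 82.9 to 88.4) and 82.1% in Lipo-PBS (80.1 to 83.9), and the dental follicle state alone held 74.3% and 74.6%. Mast cells or basophils, known ST2 carriers, were at 204 and 187 CPM, but from 5 and 2 UMIs in 13 cells. T or NK cells held 12 and 13 UMIs (50.9 and 48.2 CPM). In mesenchyme the level was 39.0 in Lipo-Clo (564 UMIs) and 101 in Lipo-PBS (1356 UMIs), lower in Lipo-Clo (log2 -1.37, -1.51 to -1.22). The states did not all share this direction. In the periodontal ligament state Il1rl1 was higher in Lipo-Clo, at 41.4 against 23.6 from 24 and 36 UMIs (log2 0.81, 0.00096 to 1.59). It was lower in the Tnn and Aspn cells, which carry markers of that state (7 and 17 UMIs, log2 -1.85). It was also lower in the Ccl19 and Gdf10 fibroblasts (1 and 24 UMIs, log2 -3.91, -9.28 to -1.30). In adventitial-type fibroblasts the interval included no difference (log2 -0.54). Each of the other 6 states outside the follicle held under 20 UMIs. Among the 6863 mesenchymal genes with at least 500 UMIs, 35 including Il1rl1 itself had a ratio this low or lower, and 5.61% were past 1.5-fold lower. The deposited counts do not separate the membrane-bound from the soluble form.

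In the follicle state the counts were 488 and 1232 UMIs from 592 and 475 cells, or 218 and 765 CPM (log2 -1.81, -1.96 to -1.66). A UMI was found in 24.7% of Lipo-Clo and 49.1% of Lipo-PBS follicle cells, at a median depth of 3652 and 3085 UMIs, against 0.813% of osteoblasts or cementoblasts in both libraries at 2524 and 2786. Thinned to 1000 UMIs per cell, the follicle shares were 13.9% and 36.1%. The Lipo-Clo follicle cells were thus the deeper ones and held an Il1rl1 UMI less often.

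A finer clustering of the mesenchyme into 20 clusters, tried after these values were seen, divided the follicle state into clusters that the libraries filled unequally. The cluster led by Dio2, the thyroid hormone activating deiodinase, had Il1rl1 as its second leading gene, although Il1rl1 was not used for clustering. It held 113 Lipo-Clo and 345 Lipo-PBS cells, and Il1rl1 there was 846 and 978 CPM (log2 -0.21, -0.40 to -0.02). The cluster led by Moxd1 and C1qtnf3 held 480 and 145 cells, and Il1rl1 there was 99.7 and 254 (log2 -1.35, -1.67 to -1.03). The difference was thus smaller inside each cluster than in the whole state. When each of the 20 clusters was given the same share in both libraries, the mesenchymal ratio was -0.48, inside the 1.5-fold limit, against -1.62 with the same mixture of the 11 states. Dio2, which was not left out of the clustering, was 567 and 2091 in the whole state (log2 -1.88, -1.98 to -1.79). It was 1958 and 2676 in the cluster it led (log2 -0.45) and 300 and 675 in the Moxd1 cluster (log2 -1.17, -1.36 to -0.98). The clusters were themselves drawn from expression, so a change in cell numbers cannot be told apart here from a change in expression within follicle cells. Whether the Lipo-Clo tissue held fewer cells of the Dio2 cluster or released fewer of them cannot be told apart either. Il1r1 differed inside the Dio2 cluster as it did in the whole state, at 47.2 against 91.3 (log2 -0.95, -1.79 to -0.20). In the Moxd1 cluster it was 41.3 and 62.7, and the interval included no difference (log2 -0.60, -1.20 to 0.02). Tnfrsf12a was higher in the Dio2 cluster, at 88.8 against 39.4 from 32 and 44 UMIs (log2 1.17, 0.47 to 1.86). In the whole state it was 39.8 and 34.8 (log2 0.20, -0.30 to 0.70), and in the Moxd1 cluster 30.6 and 25.1 (log2 0.29, -0.58 to 1.24). Both of these intervals included no difference. Tnfrsf1a was 91.5 and 89.6 in the Dio2 cluster.

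**Figure D4:**
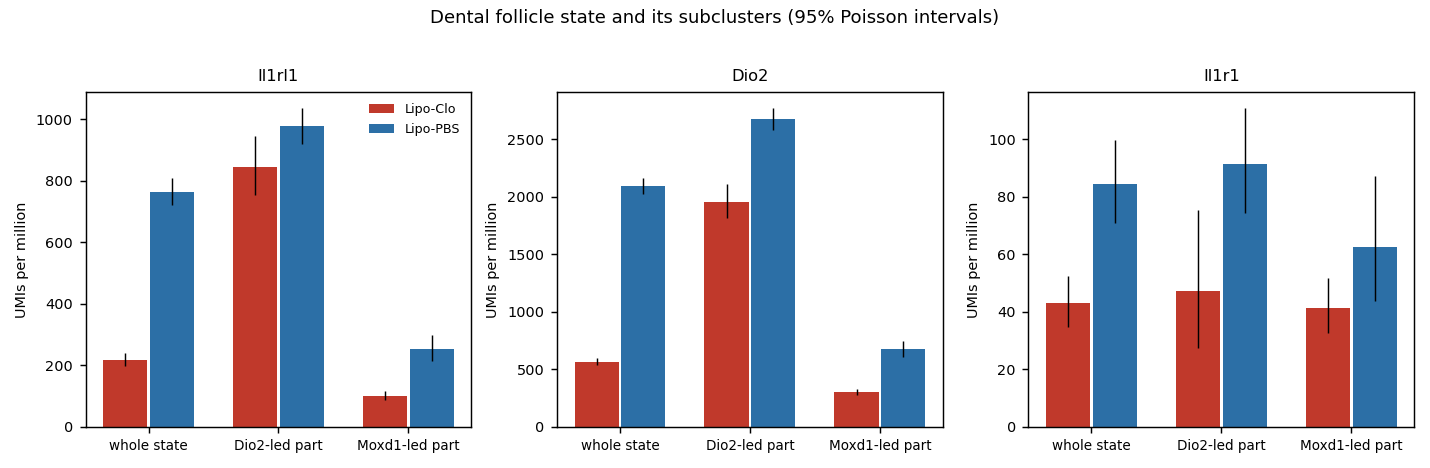
CPM (y axis, from 0) of Il1rl1, Dio2 and Il1r1 in the whole dental follicle state and in its Dio2-led and Moxd1-led clusters, with 1 bar per library and exact 95% Poisson intervals. Il1rl1 differs in the whole state (218 and 765) but stands at 846 and 978 in the Dio2-led cluster.

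Of the 9 members with enough UMIs in dental mesenchyme, 0 were higher and 4 lower in Lipo-Clo, where 5.54% of all mesenchymal genes were higher and 9.73% lower. The median log2 ratio was -0.50 over the members and -0.02 over all genes. The lower genes were Il1rl1 and the ligands or antagonist Tnf, Il1b and Il1rn, which mesenchyme holds at a trace. Tnf was 1.94 and 3.41 CPM (28 and 46 UMIs, log2 -0.82, -1.55 to -0.11) and Il1rn 0.692 and 1.56 (10 and 21 UMIs, log2 -1.17, -2.42 to -0.02). Of the 21 Il1rn UMIs, 8 were in 1 cell, and without the cell with the most UMIs in each library the interval included no difference (log2 -0.80, -2.28 to 0.58). Il1b was 40 and 83 UMIs (log2 -1.15), but 40 of the Lipo-PBS UMIs came from 1 pulp cell. Without the cell with the most UMIs in each library it was 38 and 43 UMIs (log2 -0.28, -0.95 to 0.38), and 3 members were then lower. Myeloid RNA in mesenchyme also differed between the libraries, in both directions. C1qa of macrophages was 1.59 and 3.71 CPM in mesenchyme (log2 -1.22), and S100a8 of neutrophils was 116 and 26.4 (log2 2.13). Their part in the trace of Tnf, Il1b and Il1rn was not tested. With the same mixture of the 20 clusters, 3 members were lower, and Il1rl1 was not among them.

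Over the 11 classes other than mesenchyme, 19 of 49 pairs of a member and a class were past 1.5-fold, 7 higher and 12 lower. A pooled share over all genes was not computed, so this count is read beside the shares of each class. These were, for example, 15.7% higher and 28% lower in neutrophils, and 10.4% and 10.7% in perivascular cells. Endothelium held 5 members with enough UMIs, with Tnfrsf1a and Il1r1 higher and Il1b and Il1rl1 lower, beside 12.1% and 13.7% of all genes. Its Il1rl1 came from 3 and 21 UMIs, and 11 of the 21 were in 1 cell. Its Il1b came from 8 and 34 UMIs, 14 of the 34 in 1 cell, and the interval included no difference (log2 -1.06, -2.38 to 0.08). C1qa in endothelium was 2 and 24 UMIs and S100a9 467 and 999 CPM, lower in Lipo-Clo like Il1b, and their part in it was not tested. Epithelium held 6, with Tnfsf12 higher (log2 0.70, -0.46 to 1.85) and Il1rl1 lower (log2 -1.14, -2.11 to -0.28), beside 6.21% and 15.4%. Of the 54 Il1rl1 UMIs in Lipo-PBS epithelium, 26 were in 1 cell, and of the 14 in Lipo-Clo 12 were in 1 cell. With each library clustered on its own, Il1rl1 in epithelium turned to 1.52 and Il1r1 in endothelium to -0.24. Erythroid cells held 5, with 0 higher and Tnfrsf12a lower at 5.03 against 20.3 CPM (log2 -2.01, -3.30 to -0.86), beside 10.3% and 28.7%. It came from 9 and 24 UMIs, and 5 of the 24 were in 1 cell. Col1a1 of mesenchyme was 4387 and 6246 CPM in erythroid cells, also lower in Lipo-Clo, and the part of such RNA in Tnfrsf12a was not tested. Perivascular cells held 4, with 0 higher and Tnfrsf12a lower (log2 -1.002, -2.25 to 0.10), beside 10.4% and 10.7%. The Lipo-Clo perivascular class also held 1083 UMIs of the enamel gene Amelx against 3 in Lipo-PBS, and S100a8 at 319 against 24.3 CPM, and their part in the perivascular values was not tested. T or NK cells held 4, with 0 higher and Tnfrsf1b lower from 6 and 14 UMIs (log2 -1.03, -2.70 to 0.44), beside 13.7% and 18.7%. B cells held 3, with Il1rl1 lower from 10 and 19 UMIs (log2 -2.04, -3.31 to -0.86), beside 20.7% of all genes. Of these UMIs, 5 of the 10 and 6 of the 19 were in 1 cell, and the ratio without those cells was -2.49 (-4.33 to -0.91). Col1a1 of mesenchyme was 7472 and 12173 CPM in B cells, also lower in Lipo-Clo, and the part of such RNA in Il1rl1 was not tested. In most of these classes the share of members past the limit rests on few genes, and several intervals include no difference.

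The partners of the members were followed in the same cells. Il33, the ligand of ST2, was 18.8 and 43.7 CPM in mesenchyme (271 and 589 UMIs, log2 -1.22, -1.43 to -1.01). In the adventitial-type fibroblasts, which held 216 and 424 of those UMIs, it was 187 and 188 (log2 -0.01), and with the same mixture of the 20 clusters it was -0.29. The ligand and its receptor therefore lay in different states, Il33 in adventitial-type fibroblasts and Il1rl1 in the follicle, where Il33 had 5 and 15 UMIs. Il1rap, the accessory chain that both IL-1 and IL-33 receptors need, was 18.2 and 20.04 in mesenchyme (log2 -0.14, -0.39 to 0.11). Il1r2, the decoy receptor of IL-1, was a neutrophil gene at 211 and 328 CPM, and 2.01 and 1.19 in mesenchyme. It was lower in Lipo-Clo neutrophils (log2 -0.63, -1.04 to -0.22), where 28% of all genes were lower. TMM factors raise every neutrophil log2 ratio by 0.45, which puts that of Il1r2 inside the limit. Adam17, the protease that sheds TNF and its receptors, was 33.0 and 38.0 in mesenchyme (log2 -0.20, -0.39 to -0.02).

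Most of the other pathway genes in mesenchyme lay within 1.5-fold. The counts that follow stand beside 5.54% of all mesenchymal genes higher and 9.73% lower. On the TNF side, 2 of 13 genes with enough UMIs were higher, the lymphotoxin gene Ltb (log2 0.63) and the adaptor Tradd (log2 0.59), and the kinase Ripk1 was lower (log2 -0.59). On the IL-1 side, 1 of 10 was higher (Il1r2, log2 0.76, -0.17 to 1.74) and 2 were lower, Il33 and the inflammasome sensor Nlrp3 from 9 and 18 UMIs (log2 -1.10, -2.44 to 0.13). Of 19 intracellular genes shared by both families, 0 were higher and 1 was lower, Irak3, an inhibitor of the pathway (log2 -1.03, -1.46 to -0.62). Nfkbia, which encodes the inhibitor IκBα and is itself induced by NF-κB, was 241 and 246 CPM (log2 -0.03, -0.09 to 0.04). The median ratio was -0.14 on the TNF side, -0.07 on the IL-1 side and -0.12 over the shared genes, against -0.02 over all genes.

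Of 13 known targets of TNF and IL-1, 0 were higher and 9 lower in Lipo-Clo mesenchyme, where 9.73% of all genes were lower. Their median log2 ratio was -0.90, against -0.02 over all genes. The list was chosen with earlier results of these data known, so setting it beside all genes is a description only. The chemokines Cxcl1 (17.9 and 40.9 CPM, log2 -1.19) and Cxcl2 (19.4 and 39.1, log2 -1.01), which attract neutrophils, were among them, as were Ccl2 (log2 -0.64) and Ccl7 (log2 -1.36), which attract monocytes. Il6, whose promoter window is printed above with those of Cxcl1 and Cxcl2, held 24 and 104 UMIs (log2 -2.22, -2.92 to -1.57). The adhesion molecule Vcam1 (log2 -0.90) and the prostaglandin synthase Ptgs2 (log2 -0.66) were lower too. The largest differences were those of Saa3, an acute-phase protein, with 15 and 123 UMIs (log2 -3.14, -4.02 to -2.36), and Mmp3, a matrix-degrading protease, with 60 and 465 UMIs (log2 -3.06, -3.47 to -2.66). In the dental follicle Saa3 was 1 UMI against 116 (log2 -7.33, -12.65 to -4.82) and Mmp3 was 2 against 160 (log2 -6.79, -9.85 to -4.92). The follicle thus held 1 of the 15 Lipo-Clo and 116 of the 123 Lipo-PBS Saa3 UMIs of mesenchyme. The lower Saa3 of mesenchyme therefore lay in this state and does not describe the other states. Ratios without the cell with the most UMIs were computed for the members and not for the targets. The other 4 targets, Cxcl5, Icam1, Sod2 and Lif, were inside the limit, with log2 ratios of -0.04, -0.26, 0.14 and -0.10. Elsewhere the targets with enough UMIs went both ways. In all cells kept 7 of 13 were lower and 1 higher, beside 14.5% and 6.59% of all genes. Epithelium had 4 of 7 lower and 0 higher, beside 15.4% and 6.21%, and glia 3 of 5 lower and 0 higher. T or NK cells had 3 of 4 higher and 1 lower, beside 13.7% and 18.7%, and monocytes 3 of 4 higher and 0 lower. The share of all glia genes lower and the monocyte shares are not given here.

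With the same mixture of the 20 clusters, all 9 lower targets of mesenchyme were still past 1.5-fold lower. Their ratios went from -0.63 for Ptgs2 to -3.04 for Saa3, with Il6 at -1.53 and Mmp3 at -2.10. The ratio of Il1rl1 came inside the limit, but Il1rl1 was the second leading gene of 1 of these clusters. They were tried after its values were seen. The comparison therefore cannot tell cell numbers from expression, for Il1rl1 or for the targets. Several of the chemokines are also made by macrophages, whose C1qa differed in the same direction in mesenchyme (23 and 50 UMIs). S100a8 of neutrophils differed there in the other direction (log2 2.13). The part of such RNA in the target values was not tested.

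**Figure D5:**
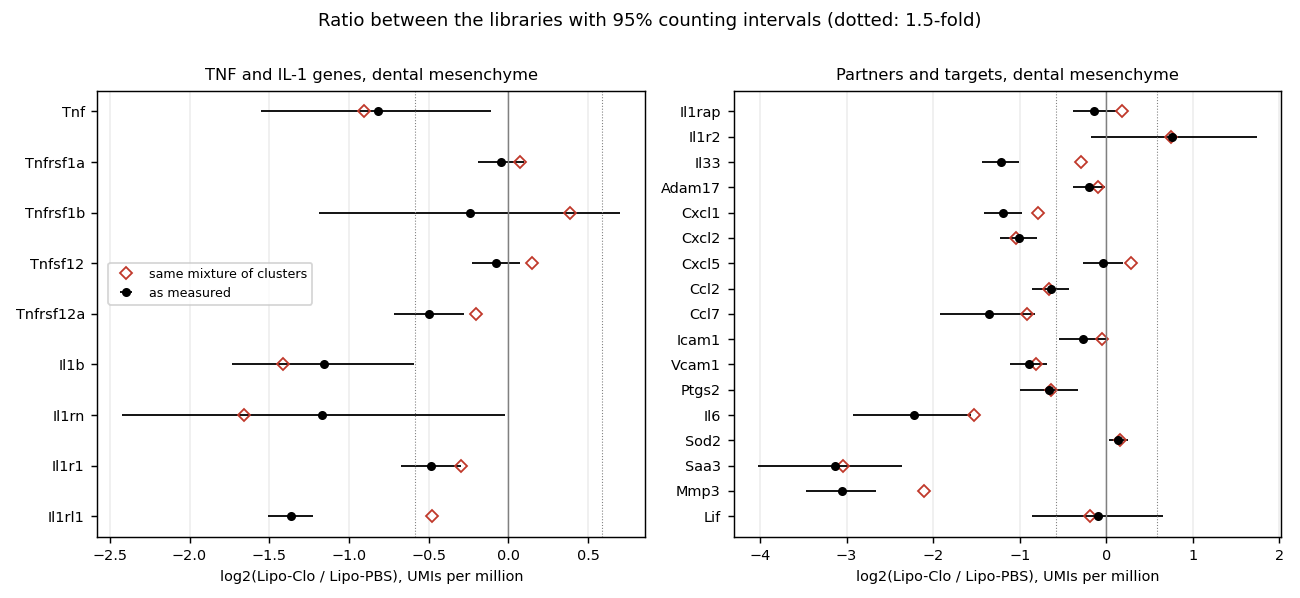
Log2 ratio of Lipo-Clo to Lipo-PBS (x axis) in dental mesenchyme for the TNF and IL-1 genes (left) and for 4 partners and the 13 target genes (right). Black points with bars are the measured ratios with 95% counting intervals, open diamonds the ratios at the same mixture of 20 clusters, and dotted lines mark 1.5-fold. With the mixture Il1rl1 moves from -1.37 to -0.48 and Saa3 from -3.14 to -3.04. The clusters were tried after the Il1rl1 values were seen.

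The genes whose level over the classes was most like that of each member were taken as a description, with Pearson's r over 30 points (15 classes in each library, which share their libraries and depth). The closest to Tnf were Fcer1g (0.956), Tyrobp (0.935) and Fcgr3 (0.933), signalling and Fc receptor genes of myeloid cells. Il1b was closest to Nlrp3 (0.955), the sensor of the inflammasome that processes its product, then Cd33 and Wfdc17. Il1a was closest to Ccrl2 (0.870), the macrophage gene Adgre1 (0.864) and the chemokine Ccl3 (0.858). Il1rn was closest to C5ar1, Clec4d and N4bp1, and Tnfrsf1b to Fyb, Fcer1g and Vsir. Armcx3, Egr1 and Rgl1 were closest to Tnfsf12, Pmepa1, Dynlt3 and Mmaa to Tnfrsf12a, and Inpp4b, Thy1 and Ppfia2 to Il1r1. The weakest likeness was that of Tnfrsf1a, with Mtmr6 at 0.776, Ralb and Ifitm3, and of Il1rl1, with Gm32219 at 0.731, Igdcc4 and Tceal5.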

How the data were processed

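Single-cell RNA sequencing of 1 Lipo-Clo and 1 Lipo-PBS library was used. The deposited values are raw UMI counts of 34285 genes in each called cell. The matrix headers name Cell Ranger 8.0.0, whereas the submitters' processing notes name Cell Ranger 3.1.0 and Seurat 3.1.1 with GRCm39 (mm39). The deposited totals were 31053404 UMIs in 9362 cells (Lipo-Clo) and 30537834 in 9653 (Lipo-PBS), and 30 cell barcodes were shared by both libraries (23 after filtering). Cells with under 200 genes (473 and 748) or over 20% mitochondrial UMIs (3 and 11) were left out. Scrublet's own threshold marked 0 of 8886 and 1 of 8894 cells as doublets and was judged not to have worked, so the 632 and 633 highest scores (0.8% per 1000 cells) were left out.

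Clusters came from log values at 10000 UMIs a cell, 2000 variable genes, 30 principal components, 20 neighbours and Leiden resolution 1, with mesenchyme reclustered on 20 components at 0.6 (1.2 for the finer clusters) and myeloid cells on 1000 genes and 15 components (scanpy 1.11.5, leidenalg 0.10.2, scikit-learn 1.9.0, numpy 2.4.6, scipy 1.17.1, pandas 2.3.3, Python 3.11.15), and were named from at least 3 markers. Clusters that no marker list named (260 and 877 cells) were kept out of the classes. UMIs were summed per class and library and divided by the class total. Intervals are exact Poisson and Clopper-Pearson at the 95% level, cover counting error only, and a count of 0 is given the limit of 3 counts. The ratio's interval was tried only on simulated Poisson counts. These leave out the gathering of many UMIs in 1 cell, so the interval's coverage on the real counts was not tested. Alternatives changed the cell filter, the doublets, the resolution, joint clustering, the scaling, the depth, the count filter, the fold limit or the mixture. Scaling alternatives used edgeR 4.0.16 and DESeq2 1.42.0 in R 4.3.3, for factors only. Figures were drawn with matplotlib 3.10.9. RefSeq promoters are of GRCm38.p6 and no coordinate was converted. Named were the 10 members everywhere, other pathway genes past 1.5-fold in mesenchyme, the partners Il1rap, Il1r2, Il33 and Adam17, and the 3 genes most like each member among those with at least 200 UMIs, on log2(CPM + 10). Dio2, Nfkbia and the 4 targets inside the limit were named after their values were seen. The members and lists were chosen with earlier results of these data known.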

Additional observations from a re-analysis of the deposited data

Results flagged for a closer look

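For 4 members the ratio differed in direction between cell classes, with intervals that did not include 0 on either side. Il1b was higher in Lipo-Clo dendritic cells (log2 1.14) and lower in dental mesenchyme (log2 -1.15), the latter resting on 1 cell. Il1r1 was higher in endothelium (log2 0.72) and had a ratio below 0 but inside the 1.5-fold limit in dental mesenchyme (log2 -0.49). Without the cell with the most UMIs in each library, the endothelial interval included no difference (log2 0.65, -0.04 to 1.33). With each library clustered on its own the endothelial ratio was -0.24. Tnfsf12 had a ratio above 0 but inside the 1.5-fold limit in perivascular cells (log2 0.50, 0.02 to 0.98) and was lower in macrophages (log2 -1.20). Over the alternatives the macrophage ratio went from -1.37 to -0.44, the latter inside the limit. Tnfrsf12a was higher in glia (log2 0.75) and lower in erythroid cells (log2 -2.01), the latter from 9 and 24 UMIs in a class that also held mesenchymal Col1a1. With 1 library per condition these differences between classes were not tested.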

How the results depend on the processing

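No paired analysis was possible because there was 1 library per condition. Of 23 ratios past 1.5-fold among the 58 given, 18 kept 1 sign in every alternative. The count of 4 members past 1.5-fold in mesenchyme was 2 with doublets kept. The 19 of 49 pairs in other classes were 12 of 45 at Leiden resolution 0.5, 4 of 21 with cells thinned to 1000 UMIs and 43 of 84 with no filter on low counts. No pooled share over all genes was computed for them. Il1rl1 in the dental follicle (log2 -1.81) was -1.15 at mesenchyme resolution 0.3, -1.35 in the Moxd1-led and -0.21 in the Dio2-led cluster, alternatives chosen after seeing the data, as were the mixture of 20 clusters and leaving out the top cell. With each library clustered on its own, the sign turned for Il1b in mesenchyme (0.15), Tnfrsf1a in endothelium (-0.0094), Il1r1 in endothelium (-0.24) and Il1rl1 in epithelium (1.52). Il1b in neutrophils turned to 0.37 when cells needed 500 genes and no more than 10% mitochondrial UMIs, and to 0.49 with thinned cells. The cause of these changes was not tested. The leading class changed for Il1b, Il1rn, Tnfsf12, Tnfrsf1a or Tnfrsf1b under other filters or clusterings. Leiden resolution 0.5 left most blood endothelium unnamed, and neither doublets kept nor Lipo-Clo clustered on its own gave a monocyte class. Depth limits Il1a, Il1rn and Tnfrsf1b most.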

Other observations

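The cells that no marker list named held members too. The largest such cluster, with 39 Lipo-Clo and 677 Lipo-PBS cells, held 119 Il1rl1 UMIs, 100 Il1b UMIs and 55 Tnf UMIs in Lipo-PBS. Its Il1rl1 level was 47.5 CPM in Lipo-Clo and 46.9 in Lipo-PBS, the former from 6 UMIs. The cluster led by Col1a1, C1qc and C1qa, which joins collagen and macrophage genes, had Tnf at 162 and 185 CPM and Il1a at 45.5 and 107.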
